A study of Homo sapiens with 32 samples.

Results

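The genes described here encode 10 integrin subunits of mammary epithelium, the α chains ITGA2, ITGA3, ITGA5, ITGA6 and ITGAV and the β chains ITGB1, ITGB4, ITGB5, ITGB6 and ITGB8. They were chosen by name, as the rows of the count table whose Ensembl identifier maps to these symbols, and all 10 were found among 17788 genes. All 10 also passed the low-count filter, which left 14865 genes for testing. These 10 genes and the gene lists used below were chosen with earlier results of these data known. Their counts beside the shares of all genes are thus descriptive only.

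RNA sequencing (RNA-seq) was performed on 32 libraries of MCF10A, a human cell line from non-tumorigenic breast epithelium grown with EGF, insulin, hydrocortisone, cholera toxin and horse serum. All clones arose from single cells after exposure to CRISPR/Cas9. Clones 27 and 2 kept wild-type JUNB (WT). Clones 1 and 65 are labelled JUNB knock-out and are called mut here. They carry an extended deletion in JUNB that left a smaller, weakly expressed polypeptide. Solvent, or TGFβ1 at 5 ng/ml for 6, 24 or 72 h, was given to each clone in 2 replications, so that each of 8 groups held 4 libraries. The libraries of 1 clone and replication are written as clone and replication number, for example 27-2. A difference between genotypes is thus a difference between 2 WT and 2 mut clones, and p-values measure the spread between libraries that share these clones.

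An integrin is a heterodimer of 1 α and 1 β chain that spans the plasma membrane and ties the extracellular matrix to the cytoskeleton. In breast epithelium, the ITGA6-ITGB4 dimer anchors basal cells to laminin through hemidesmosomes, ITGB1 pairs with ITGA2 (collagen), ITGA3 (laminin) or ITGA5 (fibronectin), and ITGAV pairs with ITGB5, ITGB6 or ITGB8 among others. Dimers of ITGAV with ITGB6 or ITGB8 are also known for binding latent TGFβ and releasing its active form. TGFβ1 drives MCF10A cells into an epithelial-mesenchymal transition (EMT), and JUNB is a subunit of the transcription factor AP-1.

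Library totals ranged from 39702412 to 54651906 counts, so that 3 counts, taken as the floor, corresponded to 0.0549 to 0.0756 CPM (counts scaled to a common library total), and every member lay far above it in every library. The series 27-2 and 1-2 stood apart. On the third principal component of log2 CPM, which held 10.2% of the variance, the libraries of WT series 27-2 had scores of 44 to 56.3 and all others scores of -37.0 to 17.0. On the first component (32.9%), the solvent library of mut series 1-2 scored -39.4 and the other mut solvent libraries -65.7 to -61.8. Calls that change without either series are given beside those results. Under solvent, the edited gene itself averaged 97.6 ± 12.9 CPM in the WT group and 112 ± 47.9 CPM in the mut group (SD over 4 libraries), and a gene-level JUNB count does not show whether the deleted stretch is missing. All 8 epithelial markers examined averaged at least 1 CPM, and their summed level over all treatments was 5798 to 11250 CPM for WT and 8960 to 14840 CPM for mut clones. KRT5 was the largest part of this sum. From WT solvent to WT 72 h, the means of KRT5 (6261 to 3653 CPM), EPCAM, CDH1, TP63 and KRT18 fell. Those of KRT14 (364 to 994 CPM), KRT17 and KRT8 rose. Of other cell types, the leukocyte markers PTPRC and CD3E and the endothelial marker VWF averaged under 0.1 CPM. CD68, also a lysosomal gene of many cells, was at 16.6 to 24.4 CPM for WT and 9.12 to 11.3 CPM for mut clones at 72 h. The stromal gene DCN was at 4.92 to 15.2 CPM for WT and 25.6 to 33.5 CPM for mut clones at 72 h. The stromal gene PDGFRA went from 0.168-0.252 CPM in solvent to 0.988-1.51 CPM at 24 h in WT clones, and from 0.0847-0.161 to 0.320-0.702 CPM in mut clones. The part of CD68, DCN and PDGFRA expression in the results was not tested.

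Levels between genes were compared as CPM per kilobase of merged exons, a scale on which the subunits of the hemidesmosome stood highest. In WT solvent libraries, ITGB4 averaged 250.6 ± 18.2 CPM per kb (SD, n = 4), ITGA6 134 ± 23.5, ITGA3 115 ± 1.88 and ITGB1 98.4 ± 15.8 CPM per kb. The collagen receptor chain ITGA2 averaged 33.0, the ITGAV partner ITGB5 29.2, the fibronectin receptor chain ITGA5 27.9, ITGB6 24.8, ITGAV 12.9 and ITGB8 3.90 CPM per kb. The order of neighbours depended on the length used. With the longest annotated transcript in place of merged exons, the share of ITGA3 in the summed level of the 5 α chains was 44.3% and that of ITGA6 32.9%, against 35.8% and 41.3% with merged exons, and the share of ITGB1 in the summed β chains was 40.8% instead of 24.2%. ITGB4 had the largest β share either way, with 61.7% and 46.3%.

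**Figure D1:**
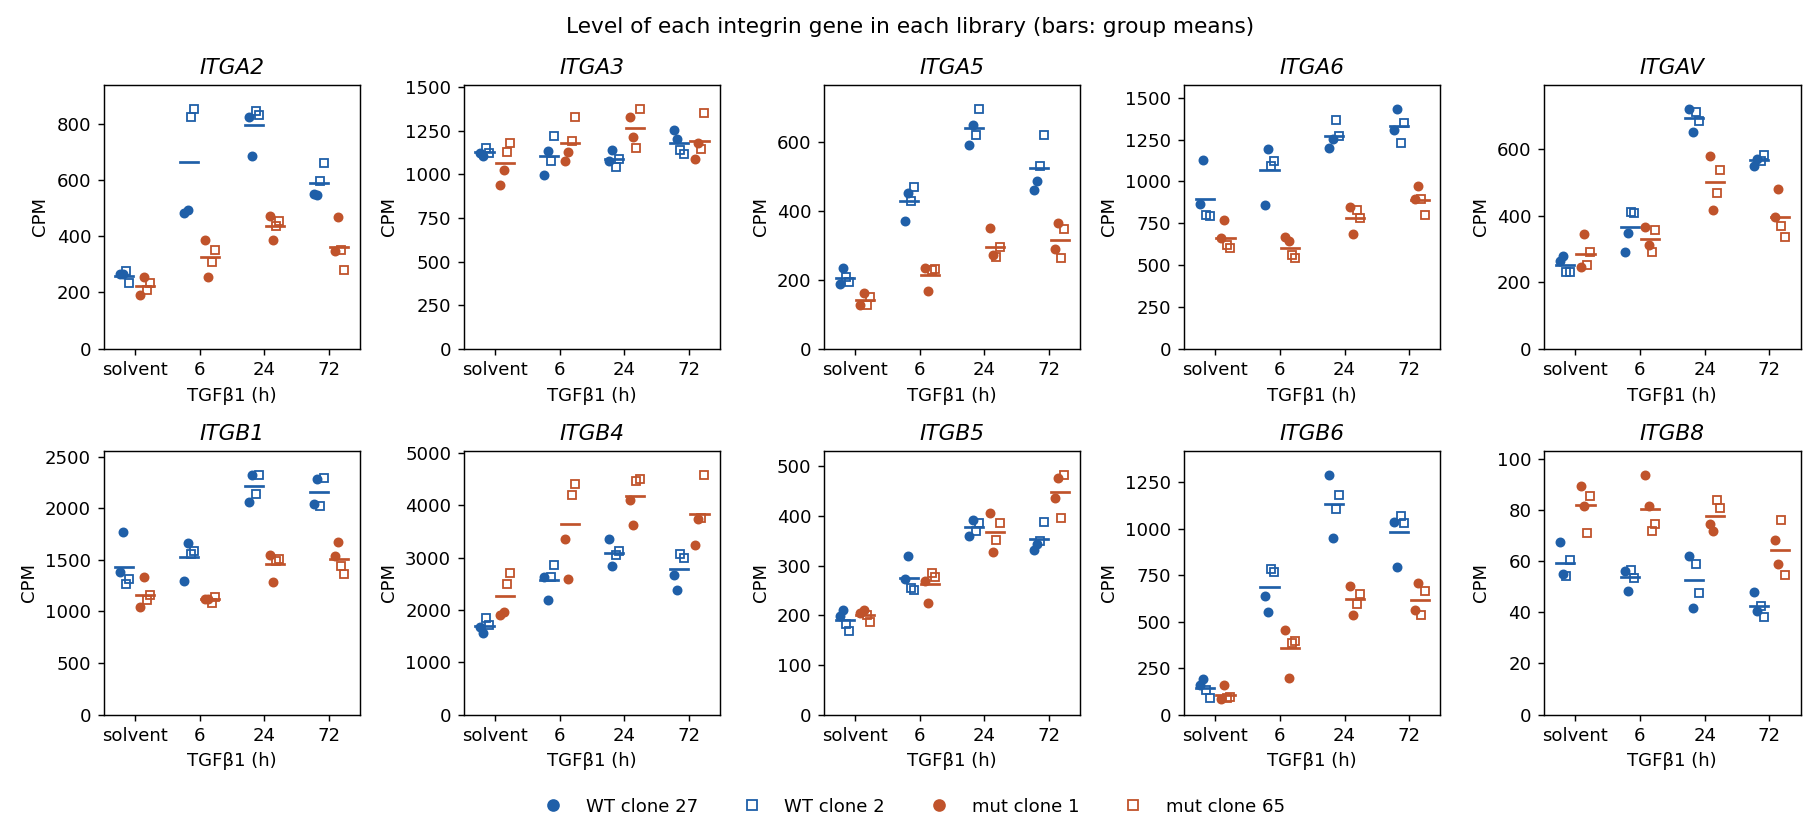
CPM of each integrin gene (y axis, linear, from 0) in each of the 32 libraries by treatment (x axis), with WT clones in blue, mut clones in orange, circles for clones 27 and 1, squares for clones 2 and 65, and group means as bars. ITGB6 rose from 88.6-193 CPM to 948-1290 CPM in WT and from 85.9-158 CPM to 538-693 CPM in mut libraries by 24 h, while ITGA3 stayed between 937 and 1376 CPM in all libraries.

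The first question was how TGFβ1 changed these genes in WT cells. At 6 h, 6 of the 10 members rose and 0 fell, at 24 h 8 rose and 0 fell, and at 72 h 8 rose and 1 (ITGB8) fell, by limma-voom with an adjusted p under 0.05. Of all genes tested, 5.13% rose and 11.9% fell at 6 h, 14.1% rose and 38.0% fell at 24 h, and 13.9% rose and 38.4% fell at 72 h. The median log2 change was 0.53, 0.93 and 0.80 over the members and -0.08, -0.18 and -0.19 over all genes at the 3 times, under scaling by library size. With TMM factors, which set the median change of all genes near 0, 7.01% of genes rose and 6.18% fell at 6 h, 23.5% and 23.2% at 24 h, and 21.5% and 23.3% at 72 h. That fit called 7, 8 and 9 members higher and 0, 0 and 1 lower at the 3 times. All times of 1 genotype share its solvent libraries. Values are under library-size scaling unless TMM is named. As these are bulk samples, less RNA per cell and fewer cells that express a gene cannot be told apart.

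ITGB6 (ENSG00000115221, GRCh38 chromosome 2, 160099667 to 160200313, minus strand), whose protein pairs only with ITGAV, had the largest change of the 10 members. Its level in WT solvent libraries was 161 CPM in 27-1, 193 in 27-2, 132 in 2-1 and 88.6 in 2-2. After 6 h it was 637, 554, 784 and 767 CPM in the same order, after 24 h 1290, 948, 1109 and 1183 CPM, and after 72 h 1034, 795, 1070 and 1032 CPM. Every treated library lay above every solvent library. On the log2 scale it rose by 2.30, 3.03 and 2.82 (SE 0.22 each) at the 3 times, a fold of 4.91, 8.15 and 7.07, with limma-voom adjusted p of 4.5e-08, 1.99e-11 and 5.97e-11.

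ITGAV (ENSG00000138448, chromosome 2, 186590010 to 186680901, plus strand) followed with a delay. Its WT solvent level was 264 CPM in 27-1, 277 in 27-2, 230 in 2-1 and 230 in 2-2, and after 24 h it was 720, 651, 712 and 684 CPM. At 6 h the levels of 291 to 410 CPM were only just above solvent, and at 72 h they were 548 to 582 CPM. ITGAV thus rose by 0.53, 1.47 and 1.18 (SE 0.12 each) on the log2 scale (limma-voom adjusted p = 0.00191, 9.53e-11 and 4.27e-09). Its other partner ITGB5 (ENSG00000082781), a vitronectin receptor chain, rose from 169 to 211 CPM in solvent to 361 to 392 CPM at 24 h, by 0.99 ± 0.09 on the log2 scale. ITGB8 (ENSG00000105855) went the other way. It lay at 54.2 to 67.5 CPM in WT solvent libraries and at 38.2 to 48.1 CPM at 72 h, without overlap, and its log2 change was -0.48 ± 0.12 at 72 h (limma-voom adjusted p = 0.00125), after -0.14 ± 0.12 at 6 h and -0.18 ± 0.12 at 24 h, which did not pass the test. ITGB8 shares 132 exonic bases with the antisense gene ITGB8-AS1, which reached at most 1.95 CPM, and reads in the shared stretch cannot be told apart without strand.

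ITGA5 (ENSG00000161638, chromosome 12, 54395261 to 54419266, minus strand), the α chain of the classical fibronectin receptor, had the next largest log2 change at 24 and 72 h. It measured 188 CPM in 27-1, 234 in 27-2, 209 in 2-1 and 193 in 2-2 of the WT solvent group, and 593, 652, 620 and 698 CPM in the 24 h group. All treated libraries lay above all solvent libraries at each time. Its log2 changes in order of time were 1.07, 1.64 and 1.35, with an SE of 0.12 each (limma-voom adjusted p = 4.96e-07, 2.63e-11 and 6.53e-10).

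The promoter windows of the members were read from RefSeq (GRCh38.p14), from 250 bases before to 50 bases after each annotated start. Of the members, 8 had a window, 13 windows in all. The AP-1 word TGANTCA, which reads the same on both strands, was present in 1 of these 13 (7.69%) and in 7.71% of all 35116 windows, and the related word TGACGTCA was in 0 of the 13 and in 1.85% of all windows. The member share was thus close to that of all windows. The window with the AP-1 word was that of ITGA5, where the word ends on the first transcribed base. The last 60 bases up to and including that base are printed with the word in capitals, from chr12:54419266-54419325 on the minus strand, beside the 250 bases before the start of ITGB6, the member with the largest change, from chr2:160200273-160200522 on the minus strand, which hold neither word. This ITGB6 start is that of RefSeq. The GENCODE gene interval given above reaches 160200313, inside the printed stretch.
ITGA5: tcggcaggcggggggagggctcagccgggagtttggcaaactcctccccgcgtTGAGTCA
ITGB6: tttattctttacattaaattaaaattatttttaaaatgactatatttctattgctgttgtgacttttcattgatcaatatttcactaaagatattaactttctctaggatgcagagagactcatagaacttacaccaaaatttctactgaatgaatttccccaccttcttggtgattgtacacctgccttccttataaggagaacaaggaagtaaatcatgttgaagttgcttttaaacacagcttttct

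ITGA2 (ENSG00000164171, chromosome 5, 52989340 to 53094779, plus strand), the collagen receptor chain, rose as early as ITGB6. In WT solvent libraries it had 267 CPM in 27-1, 264 in 27-2, 277 in 2-1 and 233 in 2-2, and at 6 h 483, 493, 824 and 853 CPM. At 6 h the clones differed, with both libraries of clone 2 above both of clone 27, and by 24 h all 4 lay between 687 and 846 CPM. Log2 changes of 1.30, 1.61 and 1.18 (SE 0.16 each) were fitted for the 3 times (limma-voom adjusted p = 1.45e-06, 2.62e-09 and 4.98e-07).

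The laminin-binding chains changed less. ITGB4 (ENSG00000132470, chromosome 17, 75721328 to 75757818, plus strand) had 1666 CPM in 27-1, 1552 in 27-2, 1850 in 2-1 and 1709 in 2-2 of the WT solvent group, and 3363, 2839, 3041 and 3129 CPM at 24 h, a log2 change of 0.87 ± 0.13 (limma-voom adjusted p = 2.9e-06). Its only partner ITGA6 (ENSG00000091409) rose from 792-1126 CPM to 1198-1365 CPM at 24 h, by 0.52 ± 0.10 on the log2 scale, and by 0.58 ± 0.10 at 72 h. ITGA6 did not pass the test at 6 h (0.26 ± 0.10, limma-voom adjusted p = 0.0931), but passed with the series as replicate block (0.26, adjusted p = 0.0284), with TMM factors (0.33, adjusted p = 0.0426) and without series 27-2 (0.31). ITGA3 (ENSG00000005884), which pairs with ITGB1, measured 1108 to 1152 CPM in solvent and 1041 to 1142 CPM at 24 h, with log2 changes of -0.03, -0.05 and 0.07 at the 3 times, none called. The small values at 6 and 24 h became positive with TMM factors (0.04 and 0.13), and at 72 h the TMM value of 0.23 was called (adjusted p = 0.0233). ITGB1 (ENSG00000150093), the partner of ITGA2, ITGA3, ITGA5 and, in part, ITGA6 and ITGAV, changed by 0.09 ± 0.09 at 6 h without passing the test. It then rose by 0.64 ± 0.09 at 24 h and 0.60 ± 0.09 at 72 h, from 1270-1770 CPM in solvent to 2063-2323 and 2022-2290 CPM.

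**Figure D2:**
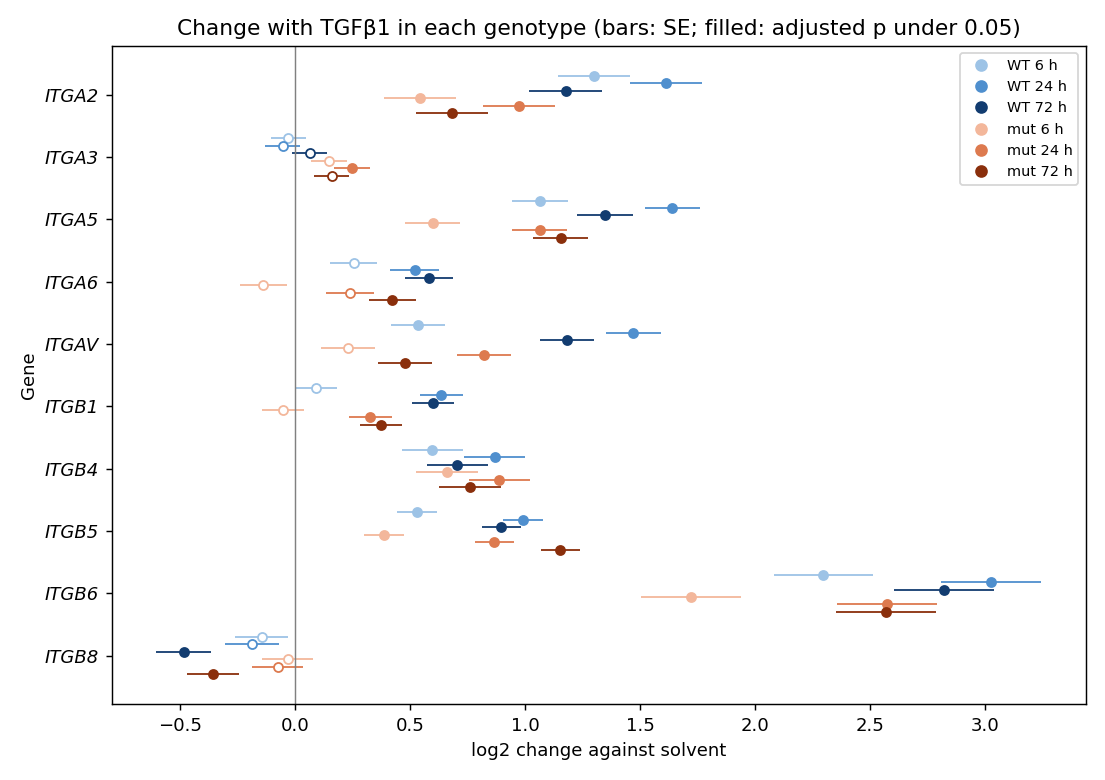
Log2 change against solvent (x axis) with SE bars for each gene (y axis) in WT (blues) and mut (oranges) at 6, 24 and 72 h, filled where the limma-voom adjusted p was under 0.05. ITGB6 lies farthest right in both genotypes (3.03 in WT and 2.57 in mut at 24 h), and ITGB8 is the gene that fell, by 0.48 in WT and 0.35 in mut at 72 h.

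The same treatment in mut cells asked which of these changes occurred with impaired JUNB. At 6 h 5 members rose and 0 fell, at 24 h 8 rose and 0 fell, and at 72 h 8 rose and ITGB8 fell. Of all genes, 2.06% rose and 4.94% fell at 6 h, 6.75% rose and 17.1% fell at 24 h, and 7.81% rose and 16.3% fell at 72 h. With TMM factors these shares were 2.80% and 2.06%, 9.26% and 8.04%, and 10.7% and 9.91%. That fit called 5, 9 and 9 members higher and 0 lower at each time. The median log2 change of the members was 0.31, 0.84 and 0.58, and that of all genes -0.06, -0.10 and -0.09.

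ITGB6 was again the member with the largest change. In mut solvent libraries it measured 85.9 CPM in 1-1, 158 in 1-2, 89.7 in 65-1 and 95.4 in 65-2. At 6 h it measured 454, 200, 384 and 395 CPM, and at 24 h 693, 538, 598 and 649 CPM. Series 1-2 was highest in solvent and lowest at 6 and 24 h, yet all treated libraries lay above all solvent libraries. It rose by 1.72, 2.57 and 2.57 on the log2 scale, with an SE of 0.22 each (limma-voom adjusted p = 1.89e-05, 4.1e-09 and 2.02e-09).

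ITGA5 rose from 127 CPM in 1-1, 163 in 1-2, 127 in 65-1 and 151 in 65-2 to 351, 274, 266 and 297 CPM at 24 h and to 291, 365, 263 and 350 CPM at 72 h. Its log2 change was 0.60 ± 0.12, 1.06 ± 0.12 and 1.16 ± 0.12 at the 3 times. ITGA2 rose from 192-257 CPM to 385-471 CPM at 24 h, by 0.98 ± 0.16, and at 6 h by 0.54 ± 0.16 (limma-voom adjusted p = 0.0325). The 6 h groups of ITGA2 overlapped, because 1-2 had 257 CPM in solvent and 256 CPM at 6 h. This 6 h call was lost without any 1 of 6 libraries (1-1, 65-1 or 65-2 of the solvent or of the 6 h group), with log2 values of 0.46 to 0.57, and when the replications of a clone were summed (0.56).

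ITGAV measured 246 CPM in 1-1, 345 in 1-2, 250.5 in 65-1 and 292 in 65-2 of the mut solvent group, 578, 417, 468 and 535 CPM at 24 h, and 395, 481, 369 and 335 CPM at 72 h. The change was 0.23 ± 0.12 at 6 h and not called, 0.82 ± 0.12 at 24 h and 0.48 ± 0.12 at 72 h. The 72 h and solvent groups overlapped, since 65-2 at 72 h lay below 1-2 in solvent. ITGB5, in contrast, was called higher at each time, with 187-211 CPM in solvent and 224-285, 327-407 and 397-483 CPM under TGFβ1, and log2 changes of 0.39, 0.87 and 1.15 (SE 0.09 each).

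ITGB4 rose from 1907 CPM in 1-1, 1966 in 1-2, 2501 in 65-1 and 2709 in 65-2 to 4106, 3625, 4456 and 4498 CPM at 24 h, by 0.89 ± 0.13. Clone 65 had the higher mean in every mut group, for example 2605 against 1936 CPM in solvent. ITGB1 changed by -0.05 ± 0.09 at 6 h without a call, and rose by 0.33 ± 0.09 at 24 h and 0.37 ± 0.09 at 72 h. ITGA6 measured 601-769 CPM in solvent, 543-667 at 6 h and 799-973 CPM at 72 h, with values of -0.14 and 0.24 at 6 and 24 h that were not called and a rise of 0.42 ± 0.10 at 72 h. The 24 h value of ITGA6 was called without series 27-2 (0.24) or 1-2 (0.38) and with TMM factors (0.33, limma-voom adjusted p = 0.0336). With the series as replicate block it was called as well (0.24, limma-voom adjusted p = 0.0314), as was the 72 h value of ITGA3 (0.16, adjusted p = 0.0407). This ITGA3 value, not called in the main fit, was also called with TMM factors (0.237), edgeR (0.235) and DESeq2 (0.237).

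ITGA3 passed the test in mut cells at 24 h, at 0.25 ± 0.08 (limma-voom adjusted p = 0.0182), although the libraries overlapped, with 937-1181 CPM in solvent and 1150-1376 CPM at 24 h. The call was lost without 1-1 or 1-2 of the solvent group or 1-1 or 65-2 of the 24 h group (0.19 to 0.23). The fall of ITGB8 at 72 h, by 0.35 ± 0.11 (limma-voom adjusted p = 0.0202), from 70.8-89.5 to 54.6-76.0 CPM, was not called with TMM factors (-0.28, adjusted p = 0.0556). It was also lost without 1-1 or 65-2 of the solvent group (-0.31 and -0.33) or 1-2 or 65-2 of the 72 h group (-0.31 and -0.28).

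Mut and WT cells were then compared at each time. ITGA5, ITGA6 and ITGB1 were lower and ITGB4 and ITGB8 higher in mut solvent libraries, 3 and 2 of 10 members, while 6.32% of all genes were lower and 6.38% higher. At 6 h 5 members were lower and 2 higher (10.0% and 11.3% of all genes). At 24 h 6 were lower and 3 higher (12.2% and 24.7% of all genes). With TMM factors, 6 members were lower and 1, ITGB8, was higher at 24 h (17.2% and 16.1% of all genes). At 72 h 6 were lower and 3 higher (13.2% and 26.0%), also with TMM factors (17.8% and 18.7%). The share of higher members at 24 and 72 h was thus close to that of all genes under library-size scaling. The median log2 difference of the members was -0.16, -0.29, -0.54 and -0.53 in this order, and that of all genes -0.01, 0.02, 0.09 and 0.10.

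The fibronectin receptor chain ITGA5 was lower in mut cells in every treatment state. Solvent levels lay between 127 and 163 CPM for mut and between 188 and 234 CPM for WT clones, and its 24 h levels 266 to 351 and 593 to 698 CPM. From solvent to 72 h the log2 differences were -0.54, -1.01, -1.12 and -0.73, with an SE of 0.12 each (limma-voom adjusted p = 0.00296, 4.66e-07, 4.87e-08 and 2.09e-05). The groups did not overlap at any time.

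ITGA6 showed the same order, with solvent levels of 601-769 CPM for mut and 792-1126 CPM for WT clones and log2 differences of -0.42, -0.81, -0.70 and -0.58 (SE 0.10 each), all called. ITGB1 had log2 differences of -0.30, -0.44, -0.61 and -0.52 in the same order (SE 0.09 each), all called. Its solvent groups overlapped (1042-1335 against 1270-1770 CPM). The solvent call of ITGB1 was lost without WT 27-2 (-0.19) or without 1-1, 65-1 or 65-2 of the mut group (-0.25, -0.28 and -0.30).

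ITGA2 and ITGB6 were called between genotypes under TGFβ1 and not under solvent. A call in 1 state and not in another does not test a change of the difference, for which the interaction is given below. The solvent level of ITGA2 was 192-257 CPM for mut and 233-277 CPM for WT clones (log2 difference -0.23 ± 0.16, limma-voom adjusted p = 0.367), and ITGB6 differed by -0.41 ± 0.22 (adjusted p = 0.228). Without series 1-2, ITGB6 was called lower in mut solvent libraries as well (-0.61). Under TGFβ1 the differences, in order of time, were -0.99 ± 0.16, -0.87 ± 0.16 and -0.73 ± 0.16 for ITGA2, and -0.99 ± 0.21, -0.87 ± 0.22 and -0.67 ± 0.22 for ITGB6, all called and without overlap of libraries. ITGAV did not differ past the threshold in solvent (0.17 ± 0.12) or at 6 h (-0.13 ± 0.12) and was lower in mut libraries at 24 h (-0.48 ± 0.12) and 72 h (-0.53 ± 0.12).

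ITGB8 and ITGB4 were higher in mut cells. Under solvent, ITGB8 lay at 70.8 to 89.5 CPM for mut and 54.2 to 67.5 CPM for WT clones. Its log2 differences from solvent to 72 h were 0.47 ± 0.11, 0.58 ± 0.11, 0.58 ± 0.11 and 0.60 ± 0.12, each without overlap of the libraries. ITGB4 was higher by 0.41 ± 0.13, 0.47 ± 0.13, 0.43 ± 0.13 and 0.46 ± 0.13. Its call was lost at all 4 times when the replications of a clone were summed (0.40, 0.48, 0.42 and 0.47), and at 24 h with TMM factors (0.34, limma-voom adjusted p = 0.0538). In solvent it was also lost without any 1 of WT 27-1, 27-2 or 2-2 or mut 65-1 or 65-2 (0.32 to 0.41), and at 6 h without WT 27-2 or mut 65-1 or 65-2 (0.37 to 0.40). ITGB5 was higher in mut libraries only at 72 h (0.34 ± 0.09, limma-voom adjusted p = 0.0022), at 397 to 483 against 332 to 389 CPM. ITGA3 was called higher at 24 h (0.22 ± 0.08, adjusted p = 0.026), which did not hold with TMM factors (0.13, adjusted p = 0.221) or without WT 2-1, mut 1-1 or mut 65-2 (0.18 to 0.20).

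**Figure D3:**
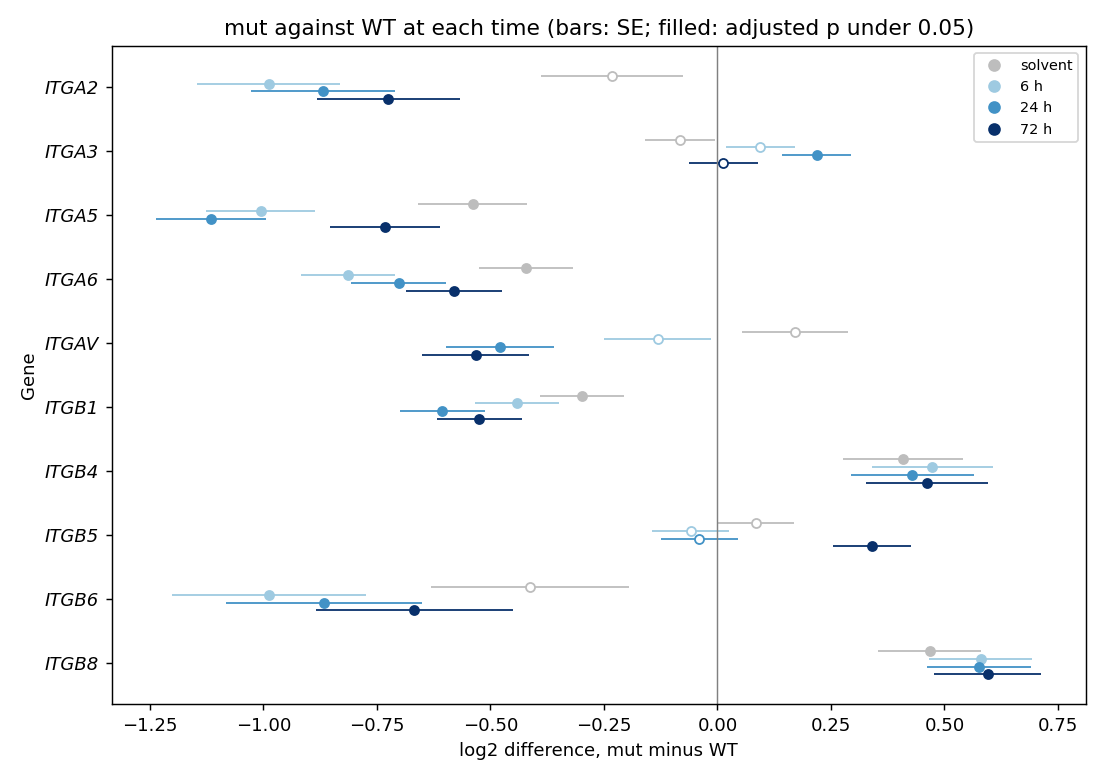
Log2 difference of mut minus WT (x axis) with SE bars for each gene (y axis) in solvent and at 6, 24 and 72 h of TGFβ1, filled where the limma-voom adjusted p was under 0.05. ITGA5, ITGA6 and ITGB1 lie left of 0 and ITGB4 and ITGB8 right of 0 at every time, whereas ITGA2 and ITGB6 are filled only under TGFβ1.

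Whether the size of the TGFβ1 response differed between genotypes was tested as an interaction term, in which the WT change is subtracted from the mut change. At 6 h it was called for 0 members by limma-voom and for 0.00673% of all genes in the positive and 0.0673% in the negative direction. At an unadjusted p under 0.05, 764 of 14865 genes passed at 6 h, near the share of 0.05 that chance alone gives. Of the members, ITGA2 (-0.76 ± 0.22, limma-voom unadjusted p = 0.00196, adjusted p = 0.459), ITGA5 (-0.47) and ITGA6 (-0.39) were among these, and edgeR and DESeq2 also called 0 members. At 24 h it was called, with a negative sign, for ITGA5 and ITGAV (1.93% of all genes negative and 7.72% positive, or 2.80% and 2.96% with TMM factors). edgeR (-0.73), DESeq2 (-0.73) and the fit of the compared groups alone (-0.64) also called ITGA2 at 24 h. At 72 h it was called for ITGAV, again with a negative sign (2.92% negative and 9.40% positive, or 4.15% and 4.53% with TMM factors).

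ITGAV had an interaction of -0.65 ± 0.17 at 24 h (limma-voom adjusted p = 0.0139) and -0.70 ± 0.17 at 72 h (adjusted p = 0.00587), so that its rise at 72 h was 0.48 in mut against 1.18 in WT cells. With TMM factors the values were -0.74 (adjusted p = 0.0104) and -0.79 (adjusted p = 0.00389). ITGA5 had -0.58 ± 0.17 at 24 h (limma-voom adjusted p = 0.0309) and -0.19 ± 0.17 at 72 h (adjusted p = 0.512). The ITGA5 call at 24 h was lost without any 1 of 8 libraries, namely solvent 27-1, 2-2, 1-2 or 65-2 and 24 h 27-2, 2-2, 1-2 or 65-1 (-0.57 to -0.51). Without series 1-2 neither gene was called at 24 h, while ITGAV at 72 h still was. Without series 27-2, ITGB1 was called at 24 h in addition (-0.39). With the replications of a clone summed, 0 members were called at 24 h and ITGAV was called at 72 h.

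The series of clone and replication pairs each treated library with its own solvent library. With this block, 5 members had an interaction at 24 h, as ITGA2 (-0.64, limma-voom adjusted p = 0.0298), ITGB1 (-0.31, adjusted p = 0.0482) and ITGA3 (0.30, adjusted p = 0.0136) joined ITGA5 and ITGAV. With the block and TMM factors, ITGA3 was not called (0.21, adjusted p = 0.116) and ITGA6 was (-0.37). The share of all genes called with the block is not given here, so these counts have no background beside them. For ITGB6, the interaction was -0.57 ± 0.30, -0.45 ± 0.31 and -0.25 ± 0.31 at the 3 times and was not called in any of the fits run on all genes. For ITGB4 it was 0.06, 0.02 and 0.05, with SE of 0.19 each, and its sign at 24 and 72 h turned with TMM factors (-0.07 and -0.03).

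The level of each chain was also expressed as a log2 ratio to ITGB1 within the same library, which does not depend on library scaling. The other β chains do not pair with ITGB1, so for them it served only as a common reference. These ratios gave 36 exact permutation comparisons (4 libraries against 4, counting both directions), of which 21 reached p = 0.0286, the smallest value that this design allows (0.049 after Benjamini-Hochberg adjustment over the 36). The permutation treated libraries as independent. It used neither the pairing of treated and solvent libraries by series nor the sharing of clones within a genotype. In WT cells at 72 h against solvent, the ratio to ITGB1 rose by 2.22 for ITGB6, 0.75 for ITGA5, 0.58 for ITGAV, 0.58 for ITGA2 and 0.30 for ITGB5, each at that p. ITGA3 fell by 0.54 and ITGB8 fell by 1.08 relative to ITGB1, at the same p. The ratios of ITGA6 (-0.02, exact permutation p = 0.629) and ITGB4 (0.10, p = 0.571) moved by less than their spread.

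In mut cells at 72 h the ratio to ITGB1 rose by 2.19 for ITGB6, 0.78 for ITGA5, 0.78 for ITGB5 and 0.31 for ITGA2 and fell by 0.73 for ITGB8, again at the smallest exact p. ITGAV moved by 0.10 relative to ITGB1 in mut cells (exact permutation p = 0.2). Between the genotypes in solvent, mut libraries had higher ratios of ITGB8 (0.77), ITGB4 (0.71), ITGAV (0.47) and ITGB5 (0.38) and a lower ratio of ITGA5 (-0.24). The denominator ITGB1 was itself lower in mut libraries, which raises each ratio. Its mean was 1160 CPM in mut against 1433 in WT solvent libraries, and 1504 against 2159 CPM at 72 h. The levels of ITGAV and ITGB5 themselves were not called between genotypes in solvent. At 72 h ITGB8 (1.12), ITGB4 (0.99), ITGB5 (0.86) and ITGA3 (0.54) had higher ratios in mut libraries. For ITGAV the difference in ratio at 72 h was -0.01 (exact permutation p = 0.886) and for ITGB6 -0.14 (p = 0.4).

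As shares of the summed CPM per kb of the 5 β chains, ITGB6 went from 6.07 ± 1.73% in WT solvent to 22.5 ± 1.62% at 24 h and 21.6 ± 1.59% at 72 h, and in mut cells from 4.0 ± 1.43% to 12.1 ± 0.886% and 12.6 ± 1.17% (SD, n = 4). ITGB4 held 61.7 ± 5.18% of the β level in WT solvent and 52.1 ± 1.77% at 72 h, against 71.1 ± 4.85% and 66.5 ± 3.37% in mut cells. ITGB1 went from 24.2 ± 3.37% to 19.0 ± 2.37% in WT and from 17.1 ± 2.55% to 12.3 ± 1.90% in mut cells. Of the α chains, ITGA3 went from 35.8 ± 3.10% to 24.4 ± 1.75% in WT and from 40.3 ± 3.94% to 33.5 ± 3.60% in mut cells at 72 h. ITGA5 went from 8.64 ± 0.424% to 14.4 ± 1.65% in WT, and from 7.09 ± 0.507% to 11.8 ± 1.34% in mut cells. The summed level of the 5 β chains was 407 ± 14.3 CPM per kb in WT and 470.3 ± 54.97 in mut solvent libraries, and 785 ± 64.7 and 849.5 ± 88.5 at 72 h. The summed α level was 323 ± 26.5 and 270.5 ± 17.9 CPM per kb in solvent and 494 ± 16.5 and 364 ± 24.3 at 72 h, so that α transcripts were higher in WT libraries while the ranges of the β sum overlapped (702-840 against 755-964 CPM per kb at 72 h).

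**Figure D4:**
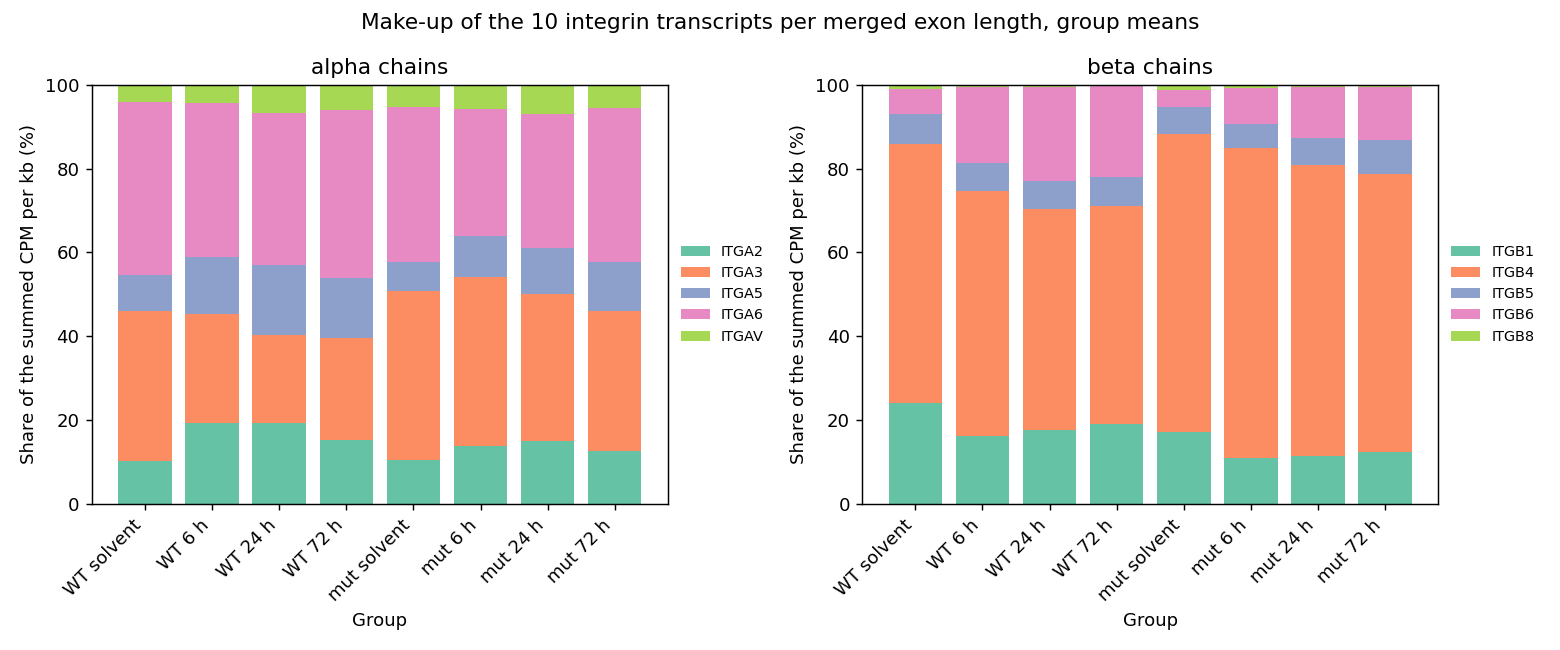
Mean share (%) of each chain in the summed CPM per kb of the 5 α chains (left) and of the 5 β chains (right) in the 8 groups on the x axis. The ITGB6 band widens from 6.07% to 21.6% in WT and from 4.0% to 12.6% in mut cells between solvent and 72 h, and the ITGB4 band is the widest β band in every group.

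Ordered by group mean, the levels of ITGB6 ran from mut solvent (107 CPM) over WT solvent (144), mut 6 h (358), mut 72 h (619), mut 24 h (620), WT 6 h (686) and WT 72 h (983) to WT 24 h (1132 CPM). Libraries of neighbouring groups overlapped between both solvent groups, between mut 72 h, mut 24 h and WT 6 h, and between WT 72 h and WT 24 h, and did not overlap at the other steps. ITGA2 had the same highest group, WT 24 h (797 CPM), and the same lowest, mut solvent (223 CPM), with a gap between all mut groups and the treated WT groups, of which mut 24 h (436) and WT 72 h (589 CPM) were the neighbours.

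Gene expression patterns close to those of the members were sought by the smallest root mean square distance, over the 8 group means of centred log2 CPM, among 9648 genes with a mean of at least 10 CPM, for the 7 members whose group means spanned at least 1 log2 unit. For ITGB6 these were COL4A1 (0.27), LPAR5 (0.29) and PMEPA1 (0.31), for ITGA5 LIPG (0.08), CHST11 (0.11) and PRICKLE2 (0.12), and for ITGA2 SERPINB5 (0.10), STON2 (0.14) and ADAM12 (0.16). ITGAV was nearest to RHBDF1 (0.10), MYL9 (0.12) and RRAS (0.12), and ITGA6 to ASAP2 (0.08), EEIG2 (0.08) and KATNAL1 (0.09). The nearest genes of ITGB4 were LRRC8E (0.10), PTPRM (0.11) and TYRO3 (0.12), and those of ITGB5 were REPS2, PFKFB4 and ANXA5 (0.13 each). The 3 distances of ITGB6 were larger than those of the other 6 members, whose span of group means was smaller.

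Among 12 other integrin subunit genes that passed the filter, 2 rose and 4 fell in WT cells at 72 h, with a median log2 change of -0.59, and 1 rose and 1 fell in mut cells, with a median of 0.24. Of all genes, 13.9% rose and 38.4% fell in WT and 7.81% rose and 16.3% fell in mut cells at 72 h, so that the counts of these subunits were near the background. ITGB3, which with ITGAV forms a vitronectin receptor, was near the floor in WT solvent libraries (0 to 0.231 CPM) and reached 5.03 to 8.83 CPM at 72 h. In mut cells it measured 0.169 to 0.898 CPM in solvent, 2.34 to 6.64 CPM at 24 h and 0.902 to 1.72 CPM at 72 h. It was called higher at each time in both genotypes, and at 72 h it was lower in mut than in WT cells by 2.16 ± 0.35 on the log2 scale (limma-voom adjusted p = 1.49e-05) with an interaction of -4.48 ± 1.12 (adjusted p = 0.0088). Its fitted change in WT cells at 72 h, 6.33 ± 0.94, depends on the count added to values near 0. ITGA1, a collagen receptor chain, rose by 0.58 ± 0.15 in WT cells at 72 h, and ITGAM and ITGA7 fell by 2.50 ± 0.45 and 1.85 ± 0.55.

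Of 24 cytoplasmic adaptors and regulators of integrins, 20 rose and 1 fell in WT cells at 72 h (median 0.40). In mut cells 10 rose and 0 fell (median 0.18). The shares of all genes that rose and fell were 13.9% and 38.4% in WT and 7.81% and 16.3% in mut cells. DAB2, an endocytic adaptor, rose by 1.67 ± 0.24 in WT cells, and TNS1, a tensin that links integrin tails to actin, by 1.16 ± 0.22. ITGB1BP1, a negative regulator of ITGB1 activation, fell by 0.30 ± 0.06, a call that was lost with TMM factors (-0.14, limma-voom adjusted p = 0.0637). With these factors 20 of the 24 rose and 0 fell (21.5% and 23.3% of all genes). In solvent, TNS1 averaged 43.0 ± 5.38 CPM for mut and 13.3 ± 3.76 CPM for WT clones (SD over 4 libraries), and was higher in mut cells by 1.72 ± 0.21 on the log2 scale (limma-voom adjusted p = 1.76e-06). It was not called in mut cells at 72 h (-0.29 ± 0.17), where its level did not differ between genotypes past the threshold (0.28 ± 0.18), and had an interaction of -1.45 ± 0.28 (adjusted p = 0.00122). At 72 h 14 of the 24 were lower and 0 higher in mut than in WT cells, with a median of -0.33. Of all genes, 13.2% were lower and 26.0% higher.

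Of 9 hemidesmosome and tetraspanin partners, 3 rose and 5 fell in WT cells at 72 h, with a median of -0.30, where 13.9% of all genes rose and 38.4% fell. With TMM factors 3 rose and 3 fell (21.5% and 23.3% of all genes). CD151, a tetraspanin bound to laminin-binding integrins, rose by 0.79 ± 0.09 in WT and 0.63 ± 0.09 in mut cells. COL17A1, the hemidesmosomal collagen, rose by 0.61 ± 0.10 in WT cells and was not called in mut cells (-0.03 ± 0.10). COL17A1 was lower in mut than in WT cells by 0.85 ± 0.10 already in solvent and by 1.48 ± 0.10 at 72 h, with an interaction of -0.64 ± 0.14. DST, the plakin that ties ITGB4 to keratin, fell by 0.91 ± 0.11 in WT and 0.61 ± 0.11 in mut cells, and SLC3A2, a heavy chain of amino acid transporters that binds ITGB1, fell by 0.68 ± 0.13 in WT cells.

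Of 19 integrin ligand genes tested, 15 rose and 2 fell in WT cells at 72 h (median 1.77), and 14 rose and 0 fell in mut cells (median 1.097). The shares of all genes were 13.9% and 38.4% in WT and 7.81% and 16.3% in mut cells. FN1, fibronectin, rose by 4.33 ± 0.47 in WT and 3.85 ± 0.47 in mut cells, and SPP1, osteopontin, by 2.74 ± 0.62 and 3.0 ± 0.40. TGFB3 fell by 1.33 ± 0.23 and LAMA5, a laminin α chain, fell by 0.24 ± 0.09 in WT cells, and neither was called in mut cells. The LAMA5 call was lost with TMM factors (-0.08, limma-voom adjusted p = 0.484). SPP1 was higher in mut than in WT cells at 72 h by 1.91 ± 0.31 (limma-voom adjusted p = 2.05e-05), while 9 of the 19 ligand genes were lower and 2 higher (13.2% and 26.0% of all genes).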

How the data were processed

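The 32 libraries were prepared with a TruSeq kit that keeps no strand and sequenced as read pairs. Per the study's methods, the authors trimmed reads with Trimmomatic and used STAR to align them to GRCh38 (Ensembl) and to count reads per gene. The deposited values are whole-number counts per gene and library without normalization, and the strand setting of the counting is not given in the sources used here. Solvent is labelled as time 0, and per the methods solvent treatment lasted as long as the longest TGFβ1 treatment.

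Of 17788 gene identifiers, 17763 were named by matching GENCODE release 44 on GRCh38. Groups came from the labels, which give genotype, treatment, clone and replication. Replicate libraries of a group differed by far more than sampling noise (smallest chi-square per degree of freedom 12.0), and the table had 0 unused columns of values. The study describes the replications as independent biological replicates, and each genotype has 2 clones.

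The main test followed the study's model, limma 3.58.1 with voom, library-size scaling and ~0 + condition over all 32 libraries in R 4.3.3. Genes were kept by filterByExpr of edgeR 4.0.16 (minimum count 10, total 15), and the Benjamini-Hochberg adjusted p-value threshold was 0.05 in 13 two-sided comparisons. Scripts were tested on simulated data. Alternatives were TMM factors, edgeR's quasi-likelihood test, DESeq2 1.42.0, no filter, a mean count of at least 50, fitting only the groups compared, a replicate block of either the series or the replication number, summed clones, a minimum absolute log2 change of 1 and leaving out each library. TMM factors together with the series block, and leaving out a series, were chosen after seeing the data.

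Series pair the libraries because they share a clone, and the labels number its replications. The deviations of same-series libraries from their group means correlated with a mean r of 0.302 (0.0296 to 0.673, 48 pairs), against 0.0183 for the other replication of a clone.

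The members and gene lists were chosen with earlier results of these data known. The genes named include the members, JUNB, cell type markers and an antisense gene that overlaps a member. The others are, from each list, the 2 largest rises and the 2 largest falls among its calls in WT cells at 72 h. Added to these are the 3 genes nearest in pattern to each member whose group means spanned at least 1 log2 unit. Floors and errors cover counting and replicate spread only.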

Additional observations from a re-analysis of the deposited data

Results flagged for a closer look

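Dixon's test at the conventional level was applied on the log2 CPM scale to the highest and the lowest library of each group of 4. A distant library was found in 3 of 80 groups of the 10 members, and chance alone gives about 1 in 20. The library WT 24 h 27-2 was the lowest of its group for ITGA2 at 687 CPM, WT 72 h 27-2 the lowest for ITGB6 at 795 CPM, and mut 6 h 1-2 the lowest for ITGA5 at 167 CPM. These libraries belong to the series 27-2 and 1-2 that also stand apart in the principal components.

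The TGFβ1 response differed between genotypes by the interaction test for ITGAV at 24 h (-0.65) and 72 h (-0.70) and for ITGA5 at 24 h (-0.58), each on the log2 scale as the mut change minus the WT change. In both genes the change was positive in WT and mut cells and smaller in mut cells. Both 24 h calls were lost without series 1-2 and with the replications of a clone summed. The 72 h call of ITGAV was kept in both settings. The cause was not tested.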

How the results depend on the processing

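A minimum absolute log2 change of 1 left 3, 4 and 4 members called in WT cells at 6, 24 and 72 h, 1, 2 and 3 in mut cells, 0, 1, 1 and 0 between genotypes from solvent to 72 h, and 0 and 0 interactions at 24 and 72 h. With the replications of a clone summed, 2 members were called in mut cells at 6 h, 3 between genotypes in solvent and 0 interactions at 24 h. The series as replicate block, alone and together with TMM factors, gave 5 and 5 interactions at 24 h. Apart from the calls named in the report, the series block alone changed no other call of a member. Leaving out 1 library or 1 series gave 0 to 3 interactions at 24 h, 2 to 5 members called in mut cells at 6 h and 3 to 6 between genotypes in solvent. Shares of all genes are given only for the main fit and TMM factors, so the counts in this paragraph have no background beside them.

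Calls were also lost without a whole series. Besides those in the report, these were ITGAV in WT cells at 6 h (2-2), ITGA5 (1-1 or 65-2) and ITGB5 (1-1, 65-1 or 65-2) in mut cells at 6 h, and ITGB1 in mut cells at 24 h (1-1, 65-1 or 65-2) and 72 h (1-1). Between genotypes they were ITGB4 in solvent (2-1, 0.45), ITGA3 at 24 h (2-2, 0.22, or 27-1, 0.21) and ITGB6 at 72 h (2-1, -0.62, or 65-1, -0.60). For the interaction at 24 h they were ITGA5 (any of 27-1, 2-1, 2-2, 1-2, 65-1 or 65-2, -0.60 to -0.47) and ITGAV (1-2, -0.47, 2-1, -0.60, or 2-2, -0.62). Summing clones also ended the calls of ITGB4 (0.67) and ITGB5 (0.39) in mut cells at 6 h, ITGA3 in mut cells at 24 h (0.25), ITGA3 between genotypes at 24 h (0.23) and ITGB1 between genotypes in solvent (-0.29). Fitting only the groups compared ended the calls of ITGB4 in mut cells at 6 h (0.66), ITGB4 between genotypes at 6 h (0.47) and ITGB1 between genotypes in solvent (-0.30).

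Signs turned only for values that were not called. In the order DESeq2, edgeR, TMM factors, and TMM factors with the series block, ITGA3 in WT cells had 0.0566, 0.0506, 0.0448 and 0.0454 at 6 h and 0.13, 0.13, 0.13 and 0.13 at 24 h. In the same order, ITGB8 in mut cells had 0.0345, 0.0278, 0.0241 and 0.0247 at 6 h and 0.0206, 0.0094, 0.0115 and 0.0106 at 24 h, and the interaction of ITGB4 was -0.0757, -0.0842, -0.0704 and -0.0703 at 24 h and -0.0582, -0.0446, -0.0325 and -0.0328 at 72 h. ITGB8 in WT cells at 24 h was 0.0047 with DESeq2 and 0.0019 with edgeR. ITGB1 in mut cells at 6 h was 0.0053 with DESeq2, 0.0041 with TMM factors and 0.0043 with the block added. ITGA3 between genotypes at 72 h was -0.0792 with DESeq2, -0.065 with edgeR and -0.0684 with TMM factors, and its interaction at 72 h was -0.0062 with DESeq2.

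Leaving out libraries or series moved the sign within these ranges. ITGA3 spanned -0.0779 to 0.0206 in WT cells at 6 h and -0.0488 to 0.0539 between genotypes at 72 h, and ITGB1 spanned -0.10 to 0.0196 in mut cells at 6 h. The ITGB4 interaction spanned -0.0377 to 0.22, -0.0575 to 0.11 and -0.0367 to 0.14 at the 3 times. ITGB5 between genotypes spanned -0.10 to 0.0164 at 6 h and -0.0902 to 0.015 at 24 h. ITGB8 spanned -0.11 to 0.0254 in mut cells at 6 h and -0.0200 to 0.22 for the interaction at 72 h. The cause of these shifts was not tested. Each genotype rests on 2 clones, and no count was near the floor for any member.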
